A study of Mus musculus with 62 samples.

Results

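The genes described here encode the extracellular matrix and the proteins that build, cut and grip it. They are the collagens, laminins, fibulins, thrombospondins, integrins, matrix metalloproteinases (Mmp), Adamts proteases, tissue inhibitors of metalloproteinases (Timp) and lysyl oxidases. They were chosen by gene symbol (symbols that begin with Col and a digit, Lama, Lamb, Lamc, Itga, Itgb, Mmp and a digit, Adamts, Timp, Lox, Fbn, Fbln or Thbs). The rule itself uses no measured value, but it was set with earlier results of these data known. The rule found 90 of the 10485 genes in the table of counts per transcript. In GENCODE M21, the mouse gene annotation used here, 154 genes carry such a symbol. The 90 genes analysed all lie on the plus strand, and the other 64, among them *Col4a1*, *Fbn1* and *Lox*, lie on the other strand and were not analysed here. Each gene was represented by its transcript with the highest mean abundance. The prefixes also caught *Col4a3bp*, which encodes a ceramide transfer protein, and *Loxhd1*, a gene of the hair cells of the inner ear, and neither is a matrix gene.

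Hearts came from male C57BL/6 J mice at 10 weeks of age, either *Rpl3l*+/+ (wild type, WT) or *Rpl3l*-/- (knockout, KO), with 4 mice per genotype in each assay. The knockout is a CRISPR-Cas9 deletion of exon 2 that is present in all cells, not only in cardiomyocytes. RPL3L is the striated muscle paralog of RPL3, a protein of the large ribosomal subunit. RNA-seq gave mRNA abundance, Ribo-seq gave the fragments covered by single ribosomes (footprints), and Disome-seq gave those covered by 2 collided ribosomes. C2C12 is a mouse myoblast line, and proliferating pools were infected with a retrovirus for mouse RPL3 (RPL3 OE), for mouse RPL3L (RPL3L OE) or with the empty virus (Control), selected with puromycin and profiled by RNA-seq and Ribo-seq, with 3 cultures per group. Fibroblasts make most of the fibrillar collagen of the heart, and a bulk lysate mixes them with cardiomyocytes, endothelium and other cells. Fewer cells of a type and less RNA per cell cannot be told apart in such data.

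A collagen chain is a long run of triplets that each hold a glycine and often a proline, and chains wind into triple helices that lysyl oxidases cross-link outside the cell. Collagen IV and laminins form the basement membrane around each muscle cell. Integrins are pairs of an alpha and a beta chain that span the cell membrane and tie the cytoskeleton to this matrix. Mmp and Adamts proteases cut the matrix, and Timp proteins block them.

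The targeted gene followed the labels. *Rpl3l* stood at 401 to 516 CPM (counts scaled to the library's total) in WT heart RNA-seq and at 24.4 to 37.0 CPM in KO. In C2C12 RNA-seq it stood at 1996 to 2053 CPM in RPL3L OE cells and at no more than 0.819 CPM in the other groups. Total counts per library were 3594696 to 22425296 for heart RNA-seq, 1606700 to 3192090 for heart Ribo-seq, 39016 to 175747 for Disome-seq, 7647102 to 29746110 for C2C12 RNA-seq and 3167026 to 6093268 for C2C12 Ribo-seq. Cardiomyocyte markers summed to 43954.65 to 51839.96 CPM in heart RNA-seq. Some heart libraries held markers of airway epithelium, of which 10 of 18 are in the table. This sum was over 100 CPM in WT 2 and WT 4 and in KO 1 and KO 3 of RNA-seq, and in WT 2, WT 4, KO 1 and KO 2 of Ribo-seq and of Disome-seq. It reached 1897.99 CPM in RNA-seq and 3748.15 CPM in Ribo-seq, each in a KO library, and did not exceed 21.26 CPM in any other heart library of RNA-seq or Ribo-seq. These libraries are called airway libraries below, and the heart calls of RNA-seq and Ribo-seq are given with them and without them.

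Codon content is given because the study asked about elongation along coding sequences. Proline made up a median of 6.83% of the codons of the 90 genes and 5.31% of those of all 10450 genes with a coding sequence, and alanine a median of 6.06% and 6.60%. The proline share was over 10% in 22 of the 90 genes (24.4%), against 7.77% of all genes. It was 19.0% in *Col1a1*, 16.3% in *Col1a2*, 19.5% in *Col3a1* and 17.9% in *Col5a1*. The sequences below come from 4 fibrillar collagens whose values are followed through the results. Each is the in-frame stretch of 54 bases (18 codons) inside a single exon with the most proline codons, the first where several tied. Stretches that cross an exon junction were not searched. The sequences are read from the GRCm38 genome along the plus strand, 5′ to 3′, with the proline codons in capitals.
Col1a1: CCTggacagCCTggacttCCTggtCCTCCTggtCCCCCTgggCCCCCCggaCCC
Col1a2: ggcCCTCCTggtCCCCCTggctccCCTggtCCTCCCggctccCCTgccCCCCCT
Col3a1: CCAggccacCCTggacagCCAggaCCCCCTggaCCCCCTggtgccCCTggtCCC
Col5a1: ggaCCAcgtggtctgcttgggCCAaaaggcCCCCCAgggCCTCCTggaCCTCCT
The stretch of *Col1a1* lies at chr11:94938537-94938590, in exon 5 of 51, and holds 10 proline codons. That of *Col1a2* lies at chr6:4510729-4510782, in exon 5 of 52, and also holds 10. That of *Col3a1* lies at chr1:45345854-45345907, in exon 48 of 51, and holds 9. That of *Col5a1* lies at chr2:27973148-27973201, in exon 21 of 66, and holds 8.

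Members that are no collagens differ in this respect. The same search gave the stretches below for *Fbln1*, *Itgb1*, *Thbs1* and *Timp1*, shown because their footprints or translation efficiency passed a test in heart or C2C12 cells.
Fbln1: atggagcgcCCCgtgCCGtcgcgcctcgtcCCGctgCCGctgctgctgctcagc
Itgb1: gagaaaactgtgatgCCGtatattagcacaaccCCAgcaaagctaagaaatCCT
Thbs1: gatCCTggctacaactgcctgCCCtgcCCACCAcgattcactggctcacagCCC
Timp1: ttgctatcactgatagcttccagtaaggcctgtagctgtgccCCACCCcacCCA
The stretch of *Fbln1* lies at chr15:85206134-85206187, in exon 1 of 17, and opens with the start codon. That of *Itgb1* lies at chr8:128713944-128713997, in exon 6 of 16. That of *Thbs1* lies at chr2:118119382-118119435, in exon 12 of 22. That of *Timp1* lies at chrX:20871081-20871134, in exon 2 of 6. These 4 stretches hold from 3 to 5 proline codons each, fewer than in the collagens.

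In the WT heart, the matrix and adhesion mRNAs that stood highest per length were *Itgb1bp2*, *Lamb2*, *Itgb1*, *Itgb5* and *Col3a1*. Levels were compared between genes as CPM per kilobase of transcript. *Itgb1bp2*, which encodes melusin, a muscle protein that binds the integrin beta 1 tail, stood at 173 ± 17.0 (SD, n = 4). *Lamb2*, the beta 2 chain of muscle laminins, followed at 62.8 ± 10.6. The integrin chains *Itgb1* and *Itgb5* stood at 58.0 ± 10.1 and 55.7 ± 1.64, and these 3 neighbours in the order did not differ beyond their spread. *Col3a1*, the chain of collagen III, stood at 52.0 ± 5.08, *Itga7*, the alpha chain of the muscle laminin receptor, at 40.1 ± 2.40, and *Fbln1* (fibulin 1) at 36.1 ± 2.48. *Col4a2* of the basement membrane stood at 34.0 ± 3.35, and the collagen I chains *Col1a2* and *Col1a1* at 31.7 ± 3.16 and 25.5 ± 2.50 CPM per kilobase. Among the proteases the levels were lower, with *Mmp2* (gelatinase A) at 16.3 ± 3.10, *Mmp15*, a membrane-bound protease, at 12.3 ± 2.36 and *Adamts7* at 5.02 ± 1.01. The 90 genes summed to 2804 to 3057 CPM per WT heart in RNA-seq and to 7145 to 7732 CPM in Ribo-seq.

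Control C2C12 cells ranked the same genes in another order, led by an inhibitor of proteases. *Timp1*, which blocks many Mmp proteases, stood at 641 ± 16.1 CPM per kilobase (SD, n = 3) against 5.61 ± 2.28 in WT heart. *Itgb1* came next at 163 ± 2.12, then *Col1a2* at 148 ± 2.78, *Col3a1* at 116 ± 2.47, *Mmp14*, a membrane-bound collagenase, at 65.4 ± 1.21 and *Col1a1* at 57.2 ± 2.90. *Thbs1*, thrombospondin 1, which activates latent TGF-beta, stood at 43.6 ± 1.24 against 0.685 ± 0.261 in WT heart. Myoblasts in culture thus carried the mRNAs of collagen I, collagen III and the thrombospondin at high levels, whereas *Itgb1bp2*, highest in heart, stood at 0.239 CPM per kilobase.

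**Figure D1:**
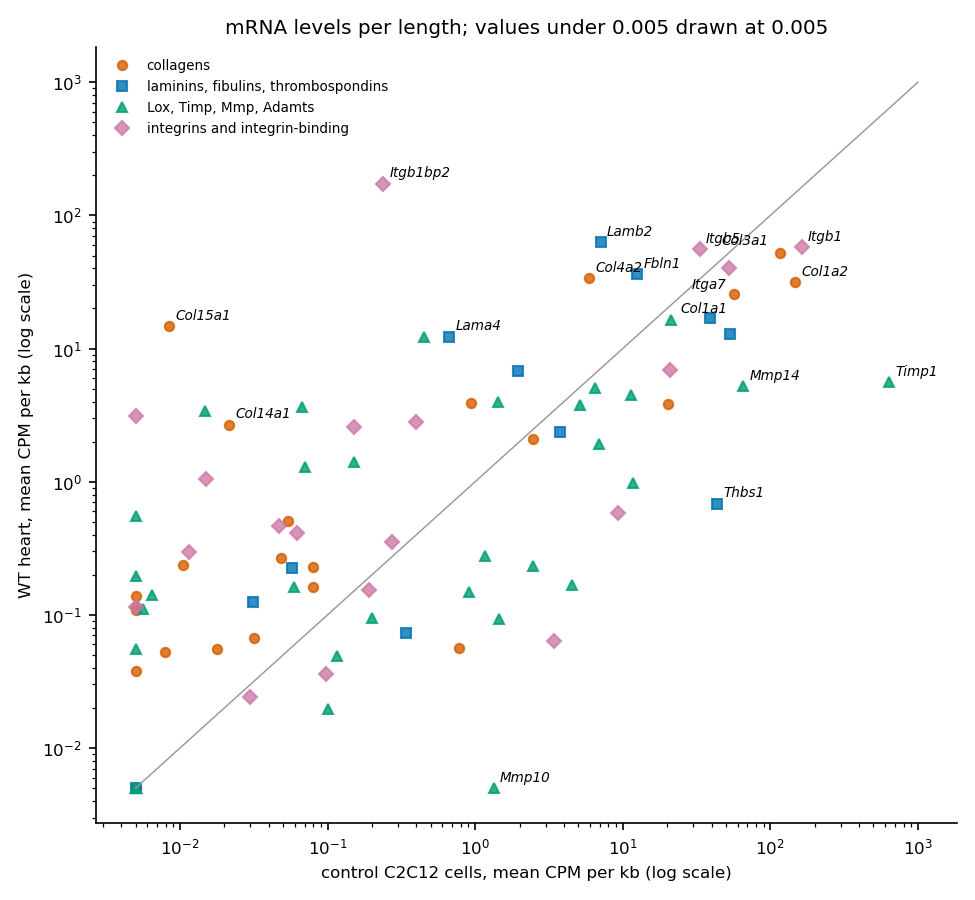
Mean RNA-seq level of the matrix and adhesion genes in WT heart (n = 4 mice) against control C2C12 cells (n = 3 cultures), both in CPM per kilobase on log axes, with 1 point per gene. *Col4a3bp* and *Loxhd1* are not drawn, and values below a fixed floor are drawn at that floor. *Itgb1bp2* and *Lamb2* lie on the heart side of the diagonal, and *Timp1* and *Thbs1* far on the C2C12 side.

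Of the 55 members that could be tested between WT heart and control C2C12 cells, 28 were higher in heart and 23 were lower (adjusted p under 0.05 in edgeR's quasi-likelihood fit, with p adjusted by Benjamini-Hochberg over all transcripts). Among all transcripts, 80.7% passed the same test, so that a call is the usual outcome here. The groups differ in tissue, in culture and in the set of libraries, which cannot be told apart. Scaling decides the split. With library totals in place of TMM, which scales libraries so that most transcripts keep their level, the median over all transcripts moved from -0.08 to -0.84 on the log2 scale, and 22 members were higher and 29 lower. *Itga7* (0.38 against -0.38), *Mmp2*, *Adamts2*, *Adamts7*, *Col16a1* and *Thbs3* changed direction with it, as did *Itga10*, which was called under neither scaling (0.67 against -0.09).

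The higher side held integrins, laminins, collagens and proteases. *Itgb1bp2* was higher in heart by 10.07 on the log2 scale (SE 0.23, adjusted p = 2.23e-13 by edgeR). *Col14a1*, a collagen that associates with fibrils, was higher by 7.65 (SE 0.37), *Lama4*, a laminin chain of vessel walls, by 4.97 (SE 0.16), *Lamb2* by 3.92 (SE 0.16) and *Col4a2* by 3.28 (SE 0.10). *Col15a1*, *Itga9*, *Itgam* and *Adamtsl2* had no more than 3 counts in every control C2C12 library, so that no ratio is given for them. *Adamts19* had none there, and its level in heart was at least 17.1-fold higher than 3 counts per library would give. On the lower side stood *Timp1* (-6.02, SE 0.18), *Thbs1* (-5.30, SE 0.17), *Mmp14* (-2.92, SE 0.14) and *Loxl3*, a lysyl oxidase (-2.91, SE 0.18). *Mmp10*, a protease of the stromelysin family, had no count in WT heart and was there at least 3.99-fold lower, set against 3 counts per library. Collagen I and III chains differed less, with *Col1a2* at -1.46 (SE 0.10), *Col1a1* at -0.40 (SE 0.11) and *Col3a1* at -0.40 (SE 0.11).

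The members carried more footprints per mRNA than most genes in both systems. The ratio of mean Ribo-seq CPM to mean RNA-seq CPM (a level of translation efficiency, TE) had a median of 1.53 on the log2 scale over the 46 members with enough counts in WT heart, against 0.56 over all 5279 genes, and 39 of the 46 stood above that median. In control C2C12 cells the medians were 0.71 over 41 members and 0.26 over 5311 genes, and 32 members stood above. Collagens and other members were alike in this. In WT heart the collagens had a median of 1.74 (9 of 10 above the median of all genes) and the others one of 1.51 (30 of 36 above), and in control C2C12 cells the medians were 0.59 (7 of 8 above) and 0.72 (25 of 33 above). The ratio has no absolute scale, since each assay is normalised to its own total, and these counts describe the genes without a test.

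**Figure D2:**
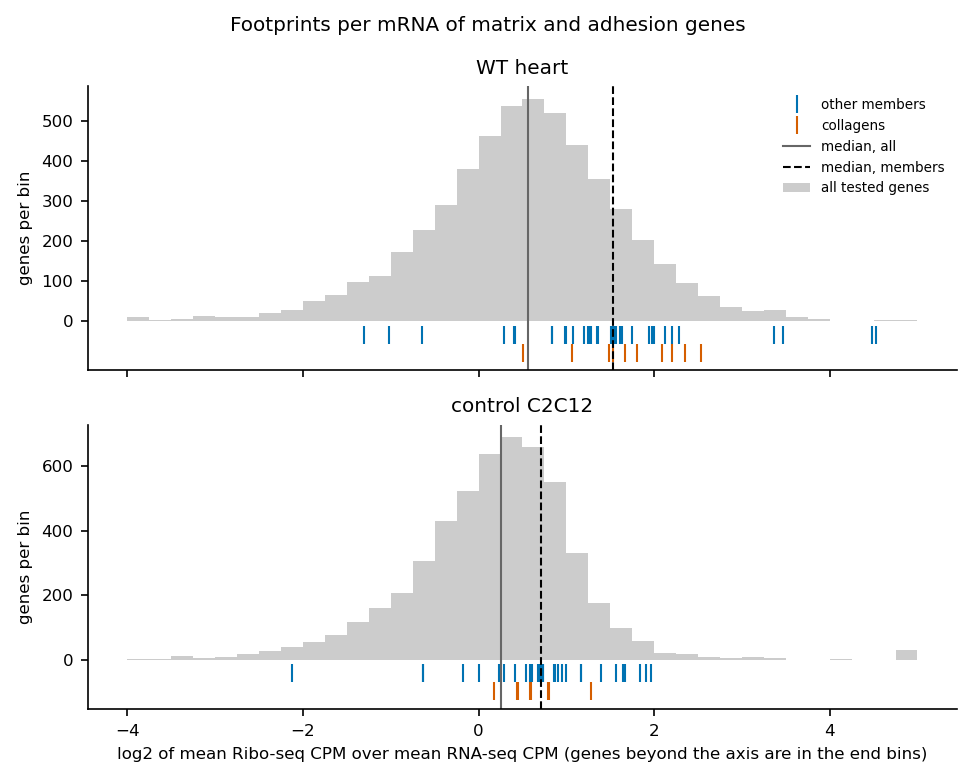
Distribution of log2 (Ribo-seq CPM / RNA-seq CPM) over all genes with enough counts in WT heart and in control C2C12 cells, with a tick for each matrix or adhesion gene and lines at the medians. The median of the members lies to the right of that of all genes in both panels, at 1.53 against 0.56 in heart and at 0.71 against 0.26 in C2C12 cells.

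Single members lay far apart on this scale. *Itgav*, the alpha chain of the vitronectin receptors, had 23.2 times as many CPM in Ribo-seq as in RNA-seq in WT heart, *Thbs1* 22.3 times and *Timp3*, an inhibitor that binds to the matrix, 10.4 times. The ratios of *Itgav* and *Thbs1* rest on low mRNA values in heart, 4.11 and 4.01 CPM. In control C2C12 cells the same genes stood at 3.15, 2.96 and 3.18. *Adamts7* and *Itgb5* were at the other end, with 0.404 and 0.494 times in heart and 0.647 and 0.646 times in C2C12 cells. *Loxhd1* had no RNA-seq count in any heart library but 7.65 to 23.5 CPM in Ribo-seq. Multiple mappings were allowed in Ribo-seq, and whether such footprints come from the gene named was not tested.

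Loss of RPL3L left the mRNA of the matrix genes without any called change. In heart RNA-seq, 61 members were tested and 0 passed an adjusted p of 0.05 by edgeR, with 0 at an unadjusted p under 0.05 and 0 by DESeq2, and the smallest adjusted p was 0.999. Among all 15394 transcripts tested, 0.013% passed. The median change of the members was 0.08 on the log2 scale, against 0.00 over all transcripts. *Col1a1* stood at 144, 174, 146 and 143 CPM in WT and at 250, 111, 271 and 145 CPM in KO hearts. *Col1a2* stood at 152, 191, 173 and 161 CPM in WT and at 266, 114, 279 and 149 CPM in KO. *Col3a1* stood at 283, 331, 269 and 273 CPM in WT and at 364, 200, 427 and 243 CPM in KO. In each of these fibrillar collagens, KO 1 and KO 3, which are the airway libraries, lay above all WT hearts, whereas KO 2 lay below all of them, so that the genotypes overlapped. The smallest p belonged to *Col5a1*, a chain of collagen V that sets the width of collagen fibrils, and to *Col9a2*, a cartilage collagen chain. *Col5a1* stood at 33.7, 28.1, 34.9 and 31.9 CPM in WT and 43.7, 28.2, 49.4 and 37.3 CPM in KO (log2 change 0.31, SE 0.15, adjusted p = 0.999 by edgeR), and at 0.02 without the airway libraries. *Col9a2* did not exceed 0.906 CPM in WT and reached 3.26 CPM in KO.

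Footprints on *Itgb1* formed the exception in heart Ribo-seq. Integrin beta 1 is the beta chain shared by most matrix receptors of the cardiomyocyte. Its footprints stood at 634, 627, 695 and 612 CPM in WT and at 501, 493, 471 and 457 CPM in KO hearts, with no overlap, while its mRNA stood at 258, 190, 251 and 186 CPM in WT and 242, 153, 219 and 230 CPM in KO. The log2 change of the footprints was -0.38 (SE 0.08, adjusted p = 0.0354 by edgeR) and that of the mRNA -0.06 (SE 0.14, adjusted p = 0.999). Their difference, the change in TE, was -0.32 (SE 0.16, adjusted p = 0.796 by edgeR) and was not called. Over the settings tried it ranged from -0.43 to -0.11. Within KO, the airway libraries held 493 and 501 CPM and the others 457 and 471 CPM, all below the WT hearts. The call did not hold when 1 transcript per gene was fitted (adjusted p = 0.0601), when any 1 of the 8 hearts was left out (adjusted p from 0.0565 to 0.107, log2 change from -0.40 to -0.35) or without the airway libraries (log2 change -0.44, adjusted p = 0.269). In the airway libraries, *Itgb1* mRNA stood at 186 and 190 CPM in WT and 219 and 242 CPM in KO. In the other libraries it stood at 251 and 258 CPM in WT and 153 and 230 CPM in KO. There the mRNA was thus lower in KO as well, without overlap.

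*Itgb1* was 1 of 54 members tested in heart Ribo-seq, and no member rose. Among all transcripts 0.677% passed, so that this single call is no result about the group as a whole. At an unadjusted p under 0.05 there were 9 of 54 members, against 16.3% of all transcripts. The median change was 0.37 over the 5 fibrillar collagens tested and 0.53 over the 4 other collagens, against 0.09 over all 54 members and 0.01 over all transcripts, and no collagen passed. *Col1a1* had 502, 493, 438 and 499 CPM of footprints in WT and 793, 829, 387 and 434 CPM in KO hearts (log2 change 0.37, SE 0.19, adjusted p = 0.338 by edgeR). *Col1a2* had 471, 502, 440 and 476 CPM in WT and 661, 710, 357 and 403 CPM in KO. *Col3a1* had 624, 588, 601 and 603 CPM in WT and 729, 731, 371 and 473 CPM in KO. Here it was KO 1 and KO 2, again the airway libraries, that lay above every WT heart, and KO 3 and KO 4 that lay below. A KO number is not read here as 1 mouse across these assays. Over 2629 genes, the deviations of KO 2 in RNA-seq from the group mean had a correlation of -0.688 with those of KO 2 in Ribo-seq and of 0.782 with those of KO 3, and KO 3 in RNA-seq had one of -0.755 with KO 3 and of 0.818 with KO 2 in Ribo-seq. Whether these 2 numbers are exchanged between the assays was not tested. *Col16a1*, a collagen at the surface of fibrils, had 15.7, 14.3, 15.7 and 17.1 CPM in WT and 27.5, 34.4, 15.6 and 25.6 CPM in KO (log2 change 0.78, SE 0.20, adjusted p = 0.0801 by edgeR). *Col10a1*, a collagen of growing cartilage, had 0, 8.98, 0 and 2.67 CPM in WT and 46.2, 49.5, 0 and 0.595 CPM in KO, so that its footprints sat in the airway libraries of KO.

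**Figure D3:**
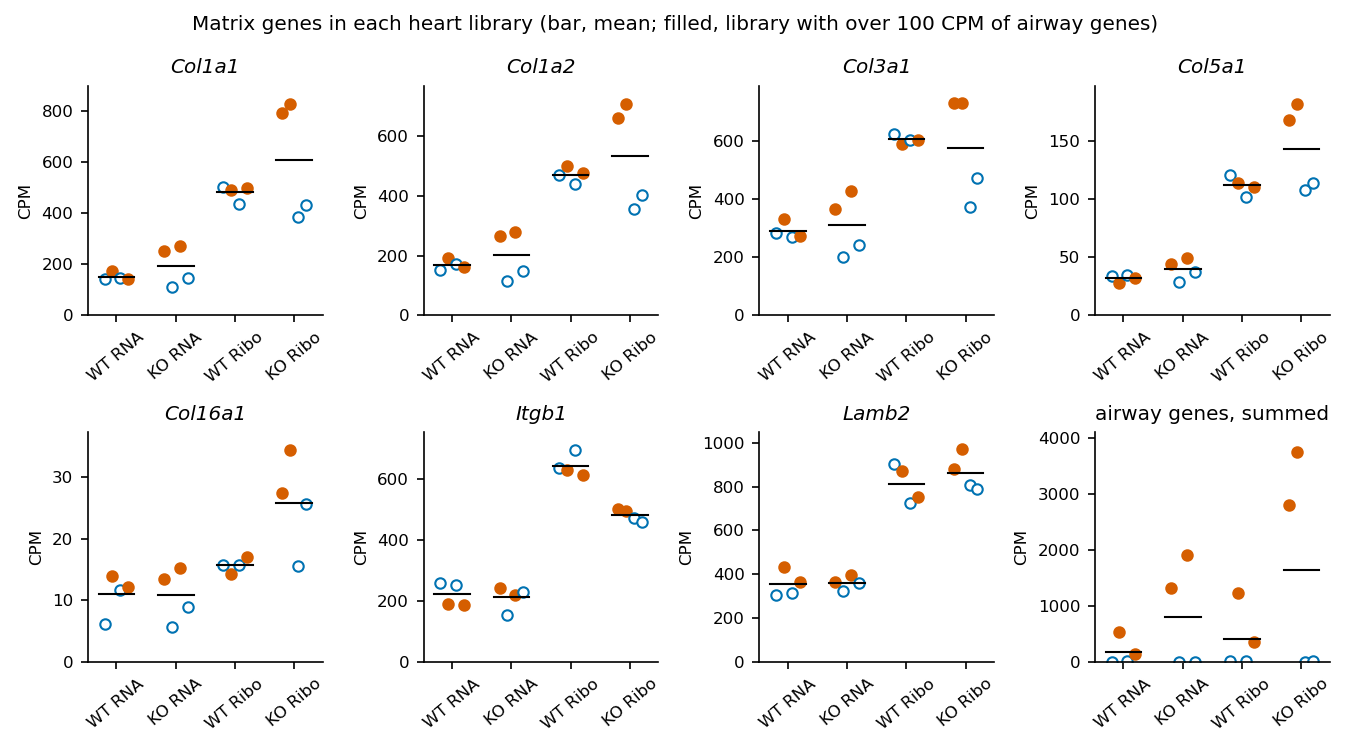
CPM of 7 matrix and adhesion genes and the summed CPM of the airway epithelium markers in each heart library of RNA-seq and Ribo-seq, with a bar at the mean of the 4 mice of a genotype. Filled points are libraries with over 100 CPM of airway markers. In KO hearts the filled points of *Col1a1*, *Col1a2* and *Col3a1* lie above the open ones in both assays, whereas the footprints of *Itgb1* lie lower in all 4 KO libraries than in any WT library.

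The split within the KO hearts was seen in many, though not all, members. In RNA-seq, 34 of 61 members (55.7%) were higher in both airway libraries of KO than in both other KO libraries, and 2 (3.28%) were lower, *Itgb1bp2* and *Lamb3*. Among all genes, 27.8% were higher and 9.64% were lower. In Ribo-seq, 43 of 54 members (79.6%) were higher, against 27.1% of all genes, and the same 2 symbols were lower, with *Itgb1bp2* at 280 and 249 CPM in the airway libraries and 306 and 339 CPM in the others. Markers of fat, of which 7 of 10 are in the table and none was at 0 in KO, also moved with this split. In RNA-seq they summed to 895.03 and 1371.31 CPM in the airway libraries of KO, 56.79 and 137.51 CPM in the other KO libraries and 148.18 to 624.87 CPM in WT, and in Ribo-seq to 1458.33 and 2187.75 CPM, 103.32 and 241.65 CPM and 281.01 to 992.09 CPM. The cartilage markers, of which 10 of 12 are in the table, moved with it in Ribo-seq, with sums of 183.33 and 272.98 CPM in the airway libraries of KO, 125.72 and 113.68 CPM in the other KO libraries and 88.43 to 131.91 CPM in WT. The fibroblast markers, of which 10 of 12 are in the table, summed to 3876.89 to 4345.78 CPM in KO and 3501.48 to 4567.16 CPM in WT in Ribo-seq. Airway markers summed to 1232.91 (WT 2) and 343.68 CPM (WT 4) in the WT airway libraries of Ribo-seq. For *Col1a1*, mean footprints were 496 CPM in airway and 470 CPM in other WT libraries, against 811 and 410 CPM in KO. For *Col1a2* they were 489 and 456 CPM against 685 and 380 CPM. For *Col3a1* they were 596 and 612 CPM against 730 and 422 CPM. In RNA-seq the WT means were 158 and 145 CPM, 176 and 163 CPM, and 302 and 276 CPM, in the same order. The part of airway, fat or cartilage tissue in the collagen values was not tested. Without the airway libraries, no member passed in RNA-seq (0 of 53, 1 at an unadjusted p under 0.05, by edgeR) or in Ribo-seq (0 of 52, 5 at an unadjusted p under 0.05).

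No member passed the tests of TE or of collided ribosomes in the heart. In heart TE, 0 of 49 members passed by edgeR, as did 0% of all 12483 transcripts, with 1 member at an unadjusted p under 0.05 and 0 members by DESeq2. The median change in TE was 0.04. Disome-seq relative to Ribo-seq could be tested for 11 members, of which 0 passed by edgeR (0 at an unadjusted p under 0.05, 0 by DESeq2, and 0% of 1365 transcripts), with a median of -0.39 against -0.08 over all transcripts. *Itga7* had 254, 140, 165 and 196 CPM of disome footprints in WT and 148, 187, 125 and 103 CPM in KO, and its log2 change relative to Ribo-seq was -0.53 (SE 0.26, adjusted p = 0.524 by edgeR). *Thbs1* rested on 0 to 48 disome counts per heart and spanned 0 to 368 CPM in WT, and its log2 change was -1.68 (SE 0.96, adjusted p = 0.553 by edgeR). Over the settings tried, these changes ranged from -0.86 to -0.21 for *Itga7* and from -2.66 to -0.09 for *Thbs1*. Over all transcripts, DESeq2 called 25 in these data and edgeR 0.

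Proline-rich members were compared with the others, as descriptions. Those with over 10% proline codons that were tested in heart Ribo-seq are all collagens. There, each of them was higher in both airway libraries of KO than in both other KO libraries. In heart Ribo-seq the 11 members with over 10% proline codons had a median change of 0.35 on the log2 scale and the 43 others 0.06, and among the genes outside the group the medians were 0.21 (383 genes) and 0.00 (4928 genes). In heart RNA-seq the proline-rich members also had the higher median, 0.19 (15 genes) against 0.01 (46 genes), whereas other genes had 0.02 and 0.01. In TE, where the mRNA is taken out, the medians of the members were 0.03 (10 genes) and 0.05 (39 genes), and those of other genes were 0.21 (377 genes) and -0.01 (4831 genes). The median TE change of the proline-rich members lay close to 0, but the collagens differed by role. The median was -0.00 over the 4 fibrillar collagens tested in TE and 0.03 over the 3 of the basement membrane. Over the 4 other collagens, of which *Col14a1* (8.40% proline) is not proline-rich, it was 0.37. Among these, the TE change of *Col16a1* ranged from 0.46 to 1.18 over the settings tried and was called in none.

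C2C12 cells with more RPL3L had more mRNA of several matrix and adhesion genes. Of 45 members tested, 16 rose and 0 fell in RPL3L OE cells against Control (edgeR, adjusted p under 0.05). Among all transcripts 9.26% passed, 4.65% higher and 4.61% lower. The median change of the members was 0.11 on the log2 scale, against 0.00 over all transcripts. In RPL3 OE cells against the same Control cultures, 19 members rose and 7 fell, with 16.1% of all transcripts passing (8.12% higher, 7.96% lower), and the median was 0.17. Both comparisons share the Control libraries and are given side by side. Summed over the 90 genes, RNA-seq gave 5006 to 5165 CPM in Control, 6647 to 6707 CPM in RPL3 OE and 5783 to 5854 CPM in RPL3L OE cells, and these ranges do not overlap. Markers of myoblasts, of which 5 of 8 are in the table and none was at 0, summed to 556.31 to 591.44 CPM in Control, 370.18 to 410.41 CPM in RPL3 OE and 666.97 to 682.1 CPM in RPL3L OE cells. How far the state of the myoblasts has a part in the matrix values was not tested.

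Among the fibrillar collagens, *Col1a1* stood at 349, 349 and 320 CPM in Control, 772, 755 and 766 CPM in RPL3 OE and 419, 431 and 414 CPM in RPL3L OE cells. It thus rose under either protein, by 1.18 on the log2 scale with RPL3 (SE 0.03, adjusted p = 4.51e-39 by edgeR) and by 0.31 with RPL3L (SE 0.03, adjusted p = 2.14e-10 by edgeR). *Col1a2*, its partner in collagen I, stood at 807, 790 and 778 CPM in Control, 1175, 1182 and 1167 CPM in RPL3 OE and 815, 849 and 822 CPM in RPL3L OE cells. It rose with RPL3 (0.58, SE 0.03) and was not called with RPL3L. *Col5a1* stood at 171, 176 and 162 CPM, 261, 226 and 253 CPM and 211, 219 and 230 CPM in the same order of groups, and rose in both (0.55 with RPL3, 0.37 with RPL3L). *Col3a1*, at 652, 659 and 633 CPM in Control, was called in neither (0.08 with RPL3, 0.06 with RPL3L). *Col4a2* of the basement membrane stood at 38.0, 38.2 and 38.3 CPM in Control, 51.1, 51.0 and 55 CPM in RPL3 OE and 48.8, 52.4 and 51.7 CPM in RPL3L OE cells and rose in both (0.47 with RPL3, 0.41 with RPL3L).

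*Thbs1* had the largest called change in RPL3L OE cells after *Adamts12*, an mRNA under 5 CPM. It stood at 255, 263 and 248 CPM in Control, 546, 562 and 557 CPM in RPL3 OE and 422, 392 and 435 CPM in RPL3L OE cells, 3 ranges that do not overlap. It rose by 1.13 with RPL3 (SE 0.04, adjusted p = 3.61e-37 by edgeR) and by 0.70 with RPL3L (SE 0.04, adjusted p = 4.69e-25). Thrombospondin 1 is a matrix glycoprotein whose gene responds to TGF-beta and to serum. The fibulins behaved differently, with *Fbln1* at 48.5, 43.3 and 45.6 CPM in Control, 32.2, 30.9 and 27.5 CPM in RPL3 OE and 49.8, 51.1 and 49.1 CPM in RPL3L OE cells. *Fbln1* fell with RPL3 (-0.60, SE 0.07, adjusted p = 4.29e-10 by edgeR), and *Fbln2* rose with RPL3 (0.41). Neither fibulin was called with RPL3L.

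Integrin chains moved by less. *Itga7*, which pairs with integrin beta 1 as the laminin receptor of muscle, stood at 216, 209 and 204 CPM in Control, 184, 182 and 171 CPM in RPL3 OE and 268, 266 and 269 CPM in RPL3L OE cells. It rose with RPL3L (0.35, SE 0.04, adjusted p = 1.95e-11 by edgeR) and fell with RPL3 (-0.22, SE 0.04, adjusted p = 7.61e-06). *Itgb1* stood at 631, 616 and 617 CPM in Control, 688, 679 and 710 CPM in RPL3 OE and 694, 677 and 679 CPM in RPL3L OE cells, and rose in both by 0.17 and 0.13. *Itgb3*, the beta chain of a vitronectin receptor, stood at 20.1, 19.3 and 20.2 CPM in Control and rose with RPL3L to 25.0, 25.8 and 26.5 CPM (0.37, SE 0.09, adjusted p = 0.00338 by edgeR), whereas RPL3 OE cells had 22.1, 17.9 and 19.8 CPM and no call. *Itgb5*, another beta chain of vitronectin receptors, rose with RPL3 (0.54) from 101 to 103 CPM in Control to 142 to 150 CPM. Of the laminins, *Lamb1* rose in both groups (0.17 with RPL3, 0.24 with RPL3L), and *Lamb3*, a chain of epithelial laminin, rose with RPL3L (0.46, SE 0.14, adjusted p = 0.0305 by edgeR) at 6.93 to 11.8 CPM over both groups. The call of *Lamb3* was lost by DESeq2 and without Control 1 (adjusted p = 0.0532), Control 3 (0.226), RPL3L OE 2 (0.167) or RPL3L OE 3 (0.0777).

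The enzymes that cross-link or cut the matrix included members that moved in opposite directions under the 2 proteins. *Loxl2*, a lysyl oxidase that acts on collagen IV, stood at 35.1, 37.8 and 38.0 CPM in Control, 22.8, 17.2 and 17.9 CPM in RPL3 OE and 53.9, 53.4 and 58.5 CPM in RPL3L OE cells. It fell by 0.95 on the log2 scale with RPL3 (SE 0.08, adjusted p = 1.54e-14 by edgeR) and rose by 0.57 with RPL3L (SE 0.07, adjusted p = 1.8e-09). *Adamts7*, a protease that cuts cartilage oligomeric matrix protein, stood at 33.7, 33.6 and 36.5 CPM, 24.3, 23.2 and 21.8 CPM and 42.1, 41.3 and 43.1 CPM, with changes of -0.59 (SE 0.08, adjusted p = 1.14e-08 by edgeR) and 0.27 (SE 0.07, adjusted p = 0.00636). *Mmp2* stood at 68.5, 62.5 and 64.1 CPM in Control, 99.8, 109 and 107 CPM in RPL3 OE and 64.8, 69.1 and 65.8 CPM in RPL3L OE cells, and rose with RPL3 (0.71, SE 0.05, adjusted p = 4.54e-18). Of the 6 Mmp genes tested, 0 were called with RPL3L, and with RPL3 *Mmp2* and *Mmp14* rose (*Mmp14* by 0.43) and *Mmp10* fell. *Mmp10* was low throughout, at 2.73, 2.16 and 2.02 CPM in Control, 0.131, 0.117 and 0.943 CPM in RPL3 OE and 0.865, 1.38 and 1.54 CPM in RPL3L OE cells.

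Further Adamts genes and both inhibitors were called. *Adamts12* rose in both (1.35 with RPL3 and 0.82 with RPL3L, adjusted p = 0.0389 for the latter by edgeR) from 1.59, 1.75 and 1.78 CPM in Control. The latter call was lost when any 1 of the 6 Control and RPL3L OE libraries was left out (adjusted p from 0.0537 to 0.229) and with the replicate block. *Adamts4*, an aggrecan-cutting protease, stood at 7.24, 6.0 and 5.82 CPM in Control, 3.14, 3.63 and 2.40 CPM in RPL3 OE and 7.29, 7.22 and 7.41 CPM in RPL3L OE cells and fell with RPL3 (-1.06). *Adamts6* rose in both (0.24 with RPL3, 0.34 with RPL3L). *Timp1* stood at 545, 519 and 538 CPM in Control, 578, 597 and 577 CPM in RPL3 OE and 626, 622 and 659 CPM in RPL3L OE cells, and it rose in both, by 0.14 and 0.25. *Timp3* rose in both as well, by 0.34 with RPL3 and by 0.21 with RPL3L.

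**Figure D4:**
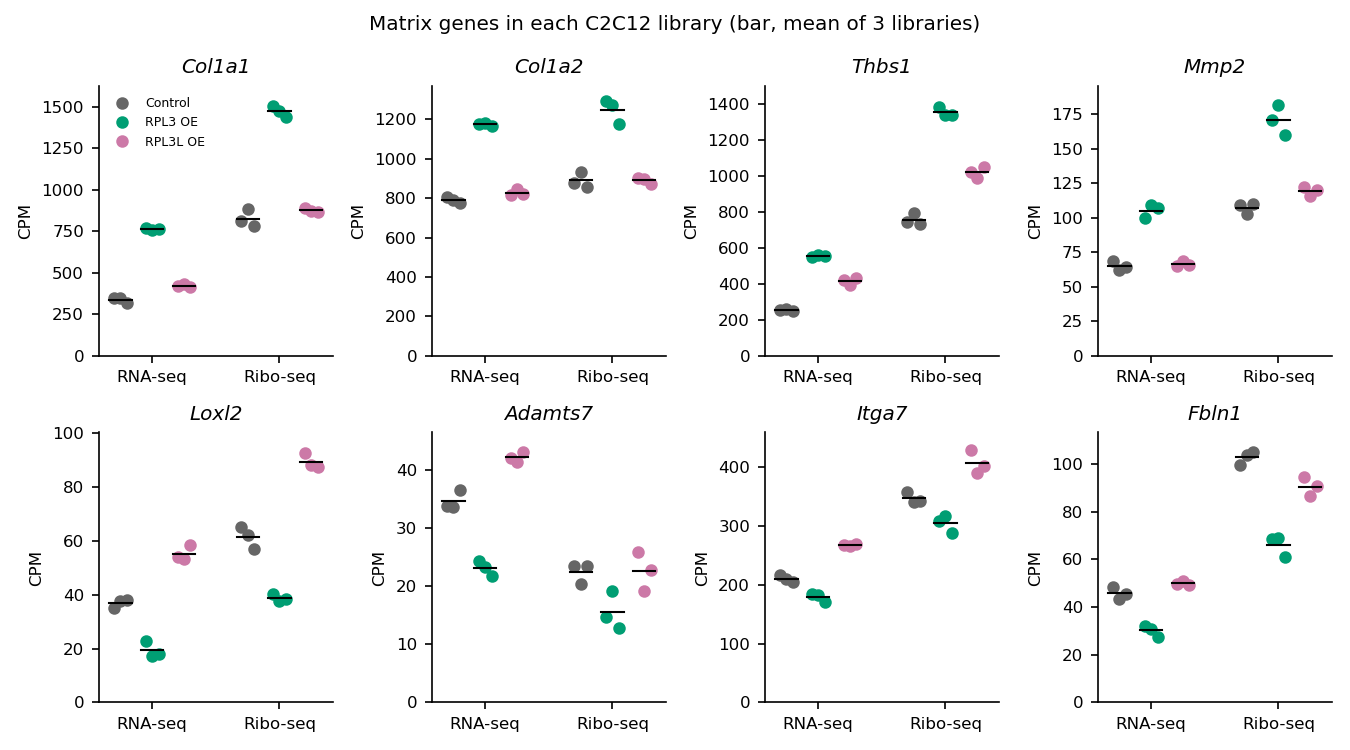
CPM of 8 members in each C2C12 library of RNA-seq and Ribo-seq in Control, RPL3 OE and RPL3L OE cells, with a bar at the mean of the 3 libraries. *Col1a1* and *Thbs1* stand highest in RPL3 OE cells, and *Loxl2* is lowest in RPL3 OE and highest in RPL3L OE cells.

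Compared directly, RPL3L OE cells had less mRNA than RPL3 OE cells for some members and more for others. Of the 45 members, 11 were higher and 15 lower in RPL3L OE than in RPL3 OE cells, with 27% of all transcripts passing. *Col1a1* was lower by a log2 change of -0.87 (SE 0.03, adjusted p = 5.03e-31 by edgeR), *Col1a2* by -0.52, *Mmp2* by -0.68 and *Thbs1* by -0.43 (SE 0.04, adjusted p = 7.25e-16). *Loxl2* was higher by 1.52 (SE 0.09, adjusted p = 1.78e-23 by edgeR), *Adamts7* by 0.86 (SE 0.08), *Fbln1* by 0.72 and *Itga7* by 0.57 (SE 0.04, adjusted p = 4.53e-19). *Adamtsl1* (-2.0) and *Itgb2*, the beta chain of leukocyte integrins (-1.70), had the largest fold changes but did not exceed 2.34 CPM in any C2C12 RNA-seq library.

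**Figure D5:**
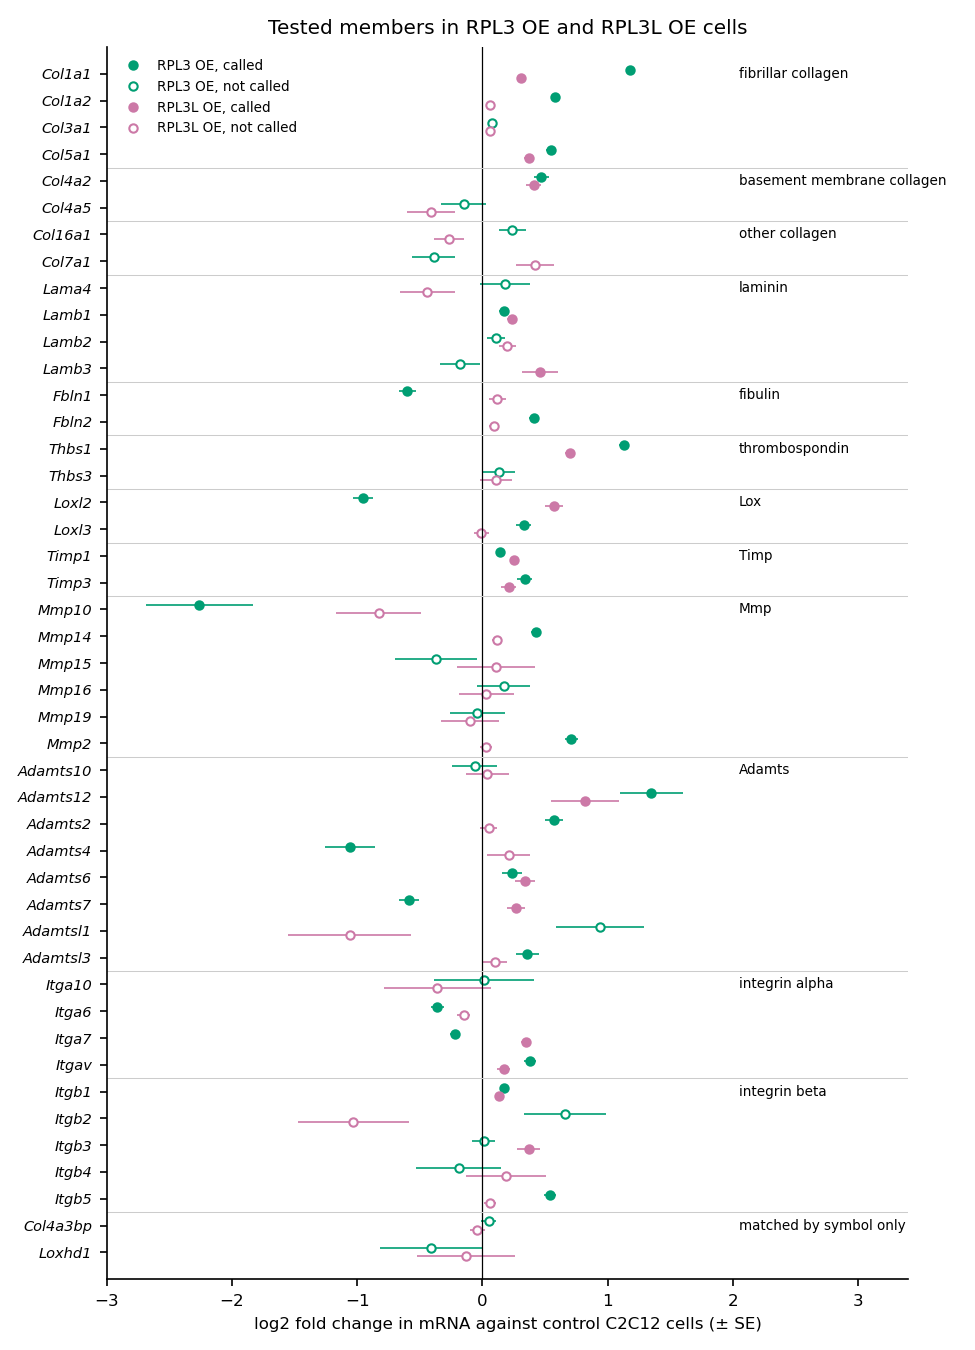
Change in mRNA of the 45 tested members in RPL3 OE and in RPL3L OE cells against Control, as log2 fold change ± SE from the edgeR fit of 9 RNA-seq libraries, ordered by role, with filled points for an adjusted p under 0.05. The filled points of RPL3L OE lie to the right of 0 throughout, whereas those of RPL3 OE lie on both sides, with *Mmp10* (-2.26) farthest to the left.

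Fewer members were called for footprints in C2C12 cells than for mRNA. Of 46 members tested in Ribo-seq, 7 rose and 3 fell in RPL3L OE cells against Control, with 11.1% of all transcripts passing. With RPL3, 12 rose and 7 fell, against 10.6% of all transcripts. By DESeq2, which gave no adjusted p to 2 of the 10 members that edgeR called with RPL3L (*Lama1* and *Col4a5*), 5 were called, all of them higher, and without Control 3 edgeR called 6. *Thbs1* had 744, 794 and 730 CPM of footprints in Control, 1383, 1339 and 1336 CPM in RPL3 OE and 1020, 987 and 1049 CPM in RPL3L OE cells (log2 change 0.81 and 0.39). *Loxl2* had 65.0, 62.3 and 56.8 CPM, 40.4, 37.5 and 38.3 CPM and 92.6, 88.3 and 87.3 CPM (-0.71 and 0.50). Both genes therefore kept the order of groups seen in their mRNA. *Itga7* had 358, 341 and 342 CPM in Control, 309, 317 and 287 CPM in RPL3 OE and 428, 390 and 402 CPM in RPL3L OE cells (-0.22 and 0.19), and its call with RPL3L was lost without RPL3L OE 1 (adjusted p = 0.0753). The summed footprints of the 90 genes were 8049 to 8245 CPM in Control, 10025 to 10543 CPM in RPL3 OE and 8640 to 8933 CPM in RPL3L OE cells.

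Collagen I footprints rose with RPL3 but were not called with RPL3L. *Col1a1* had 812, 882 and 781 CPM in Control, 1503, 1474 and 1440 CPM in RPL3 OE (log2 change 0.81, SE 0.05, adjusted p = 2.63e-14 by edgeR) and 889, 875 and 865 CPM in RPL3L OE cells, where the range overlaps that of Control. *Col1a2* had 879, 933 and 859 CPM in Control, 1291, 1275 and 1175 CPM in RPL3 OE (0.46) and 905, 897 and 870 CPM in RPL3L OE cells. *Col5a1* rose in both (0.48 with RPL3, 0.24 with RPL3L), as did *Col4a2* (0.48 and 0.27) and *Itgb1* (0.16 and 0.19). *Itgb3* rose with RPL3L (0.32) from 35 to 38.8 CPM in Control to 44.6 to 49.2 CPM. *Mmp2* (0.65) and *Mmp14* (0.35) rose with RPL3. With RPL3L, the call of *Col4a2* was lost by DESeq2 and without Control 1, Control 2, Control 3 or RPL3L OE 1 (adjusted p up to 0.108), and that of *Itgb3* by DESeq2 and without Control 2, Control 3 or RPL3L OE 2 (adjusted p up to 0.0844).

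Members with fewer footprints included 2 chains of collagen IV. *Col4a5*, an alpha chain of collagen IV, fell with RPL3L (-0.82, SE 0.21, adjusted p = 0.00884 by edgeR), at 10.4, 9.91 and 10.4 CPM in Control and 4.24, 7.03 and 6.40 CPM in RPL3L OE cells. *Col4a3*, another alpha chain, fell with RPL3 (-0.85), at 8.51, 9.91 and 7.89 CPM in Control and 5.04, 5.69 and 3.68 CPM in RPL3 OE cells. The call of *Col4a5* was lost without RPL3L OE 1 (adjusted p = 0.0558), and that of *Col4a3* by DESeq2 and without Control 2, RPL3 OE 1 or RPL3 OE 3 (adjusted p up to 0.108). *Fbln1* fell in both (-0.65 with RPL3, -0.22 with RPL3L), with 99.8, 104 and 105 CPM in Control, 68.4, 68.8 and 61.2 CPM in RPL3 OE and 94.4, 86.6 and 90.6 CPM in RPL3L OE cells. Its call with RPL3L was lost with library totals, by DESeq2 and without Control 2, Control 3, RPL3L OE 2 or RPL3L OE 3 (adjusted p up to 0.0886). *Lama1*, a laminin chain of the embryo, was also called lower in both (-2.28 with RPL3, -1.86 with RPL3L), but this rests on Control replicate 3. It had 2.60, 1.55 and 16.4 CPM in Control against 1.10 to 2.04 CPM in all other C2C12 Ribo-seq libraries, and without that replicate it did not reach the count minimum. Between the overexpressing cells, 7 members were higher and 14 lower in RPL3L OE than in RPL3 OE cells, against 18.9% of all transcripts, led by *Loxl2* (1.20) and *Adamts4* (0.90) on the higher side and by *Col1a1* (-0.76), *Lama4* (-0.61) and *Col4a5* (-0.57) on the lower. The call of *Lama4* was lost by DESeq2 and without RPL3 OE 2, RPL3 OE 3, RPL3L OE 2 or RPL3L OE 3 (adjusted p up to 0.216). That of *Col4a5* was lost under 5 settings with all libraries, DESeq2 and library totals among them, and without RPL3 OE 1, RPL3 OE 2, RPL3L OE 1 or RPL3L OE 3 (adjusted p up to 0.225).

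The called changes in TE of members in C2C12 cells were all decreases. In RPL3L OE cells against Control, 0 of 43 members rose and 4 fell, with 2.08% of all transcripts passing (0.951% lower). *Thbs1* fell by 0.31 on the log2 scale (SE 0.06, adjusted p = 0.00302 by edgeR), *Fbln1* by 0.34 (SE 0.09, adjusted p = 0.0263), *Col1a1* by 0.26 (SE 0.06, adjusted p = 0.0202) and *Timp1* by 0.22 (SE 0.06, adjusted p = 0.0354). For *Thbs1*, *Col1a1* and *Timp1* the mRNA had risen by more than the footprints, and for *Timp1* the footprints stood at 860, 859 and 853 CPM in Control and 894, 905 and 881 CPM in RPL3L OE cells. Leaving out Control 2, Control 3, RPL3L OE 2 or RPL3L OE 3 left 1 call, that of *Thbs1* (adjusted p from 0.0130 to 0.0338), and the call of *Timp1* was lost without any 1 of the 6 libraries (adjusted p up to 0.245). In RPL3 OE cells against Control, *Col1a1* (-0.37, SE 0.06, adjusted p = 0.00247) and *Thbs1* (-0.32, SE 0.06, adjusted p = 0.0141) fell by edgeR, and 0.052% of all transcripts passed. The call of *Thbs1* with RPL3 was lost without Control 2, Control 3, RPL3 OE 1 or RPL3 OE 2 (adjusted p from 0.0619 to 0.152) and in a fit of only the 2 groups.

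Between RPL3L OE and RPL3 OE cells, 0 of 43 members passed for TE by edgeR, as did 0 by DESeq2 and 0.305% of all transcripts by edgeR. At an unadjusted p under 0.05 there were 7 members, against 9.02% of all transcripts. The difference for *Fbln1* was -0.29 (SE 0.10, adjusted p = 0.272), and for *Itgb2* it was 1.60 (SE 0.49, adjusted p = 0.180) at low counts. The called TE decreases were therefore not shown to differ between the 2 proteins. Whether proline codons have a part in the TE decreases of *Thbs1*, *Fbln1*, *Col1a1* and *Timp1* with RPL3L was not tested. The median TE change with RPL3L was -0.16 over the 8 members with over 10% proline codons and -0.05 over the 35 others, and -0.10 and 0.01 among the genes outside the group.

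Neighbouring genes of the pathway were read from lists by count, with RPL3L given before RPL3 in each case. Among all transcripts in RNA-seq, 4.65% were called higher and 4.61% lower with RPL3L, and 8.12% and 7.96% with RPL3. Of 12 tested genes for collagen synthesis and export, mRNA rose in 4 and fell in 1 with RPL3L and rose in 4 with RPL3. Among them are prolyl hydroxylases, which modify collagen proline, with *P4ha2* up (0.43) and *P4ha3* down (-0.66) with RPL3L and *P4ha1* up (0.43) with RPL3. Of 14 other matrix glycoproteins and proteoglycans, mRNA rose in 3 and fell in 2 with RPL3L and rose in 7 and fell in 2 with RPL3, where *Mfap5* of the microfibrils rose by 1.09 and *Nid2* of the basement membrane by 0.91. In Ribo-seq 0 of these 14 genes rose and 7 fell with RPL3L, among them *Emilin1* of elastic fibres (-0.75), and with RPL3 5 rose and 2 fell. Among all transcripts in Ribo-seq, 5.38% were called higher and 5.69% lower with RPL3L, and 4.7% and 5.9% with RPL3. Of 14 focal adhesion genes, mRNA rose in 6 and fell in 0 with RPL3L, led by *Vcl* (vinculin, 0.41) and *Zyx* (zyxin, 0.34), and rose in 4 and fell in 3 with RPL3.

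Of 11 growth factor signalling genes tested in C2C12 RNA-seq, 3 rose and 0 fell with RPL3L (4.65% of all transcripts rose), and 4 rose and 0 fell with RPL3 (8.12% of all transcripts rose). *Ccn2*, connective tissue growth factor, rose by 0.81 with RPL3L (SE 0.05, adjusted p = 8.01e-23 by edgeR) and by 1.35 with RPL3. It was also the only gene of these lists that was called in the heart, where its footprints were higher in KO by 0.63 (SE 0.13, adjusted p = 0.0493 by edgeR). Without the airway libraries its log2 change was 0.39 (adjusted p = 0.467), and leaving out any heart but KO 3 also ended the call (adjusted p from 0.0793 to 0.155).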

How the data were processed

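RNA-seq and Ribo-seq of heart and C2C12 cells and Disome-seq of heart were re-analysed from raw counts per transcript that the authors deposited, without normalization. The labels list cutadapt, STAR, featureCounts, GRCm38.p6 and mm10. For Ribo-seq and Disome-seq the methods describe adaptor trimming, removal of rRNA reads, alignment with multiple mappings allowed, removal of duplicates by UMI and counting per transcript, so that transcripts of a gene, and similar genes, can share reads. Steps for RNA-seq, program versions and the strand setting of counting are not given in the sources used here. m6A-seq was not used here.

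The 47754 lines of the table hold 23877 transcripts as pairs of identical lines, and 1 line of each pair was kept. Identifiers of 23662 transcripts matched GENCODE M21, all on the plus strand, and 215 did not. The 2 Disome-seq runs of a mouse were summed. The members and all gene lists were chosen with earlier results of these data known. Each member is the transcript with the highest mean CPM over the 34 RNA-seq and Ribo-seq libraries. Named are, per comparison, the members with an adjusted p under 0.05 (at most 10, by size of change) or, where none passed, the 2 with the smallest p, and for levels the 2 highest per role. Other genes were named after their values were seen.

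The main test was edgeR's quasi-likelihood F test (version 4.0.16, in R 4.3.3), with TMM scaling and a mean of 10 or more counts per assay, and with Benjamini-Hochberg adjustment over all transcripts tested, two-sided. Fold changes are log2. TE is the interaction of group and assay. Heart fits held both genotypes and C2C12 fits all 3 groups. Where no library of a group had over 3 counts, 3 counts per library served as its floor. Floors cover counting error only. SDs are taken between libraries, and SEs come from the fit, which models the spread between libraries. Depth and that spread limit every value. The fits were tested on simulated counts with 200 changed transcripts. Other settings tried were a filter on a total of 10 counts only, a filter on a mean of 50, scaling by library totals, DESeq2 1.42.0, replicate numbers as blocks, fits of 1 transcript per gene, fits of only the 2 groups compared, and fits without each replicate. Leaving out the airway libraries was chosen after the data were seen. Ribo-seq and Disome-seq of a heart with the same number deviate together (r from 0.188 to 0.554 in WT and 0.779 to 0.895 in KO), and the paired fit called no member either. In KO, libraries with different numbers on the same side of the airway split also had r from 0.736 to 0.796. Python 3.11.15, NumPy 2.4.6, pandas 2.3.3 and matplotlib 3.10.9 read files and drew figures.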

Additional observations from a re-analysis of the deposited data

Results flagged for a closer look

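Among 30 members in 120 groups of 4 heart libraries, 4 values lay far from the other 3 of their group by Dixon's test, where chance gives about 1 in 20 groups. They were *Col4a3bp* in Ribo-seq of WT 2 (48.2 CPM), *Itgb5* in RNA-seq of WT 4 (163 CPM), *Itgbl1* in Ribo-seq of KO 2 (28.8 CPM) and *Thbs3* in RNA-seq of WT 2 (10.4 CPM).

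The changes against Control were not the same in RPL3L OE cells as in RPL3 OE cells for the following members, by the direct edgeR comparison of these 2 groups (adjusted p under 0.05). Values are log2 differences, RPL3L OE minus RPL3 OE. In RNA-seq they were -2.0 for *Adamtsl1*, -1.70 for *Itgb2*, 1.52 for *Loxl2*, 1.44 for *Mmp10*, 1.27 for *Adamts4*, -0.87 for *Col1a1*, 0.86 for *Adamts7*, 0.81 for *Col7a1*, 0.72 for *Fbln1* and -0.68 for *Mmp2*. In Ribo-seq they were 1.20 for *Loxl2*, 0.90 for *Adamts4*, -0.76 for *Col1a1*, -0.61 for *Lama4*, -0.57 for *Col4a5*, -0.53 for *Mmp2*, -0.49 for *Col1a2*, 0.49 for *Adamts7*, -0.45 for *Adamts2* and 0.44 for *Fbln1*. The difference for *Mmp10* in RNA-seq was lost without RPL3 OE 1, RPL3 OE 2, RPL3L OE 2 or RPL3L OE 3, and over the left-out libraries it ranged from 1.03 to 3.26. In Ribo-seq the difference for *Lama4* was lost by DESeq2 and without 4 of the libraries (adjusted p up to 0.216), that for *Col4a5* under 9 settings (up to 0.225) and that for *Adamts7* by DESeq2 and without RPL3L OE 1 (up to 0.0681).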

How the results depend on the processing

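Of 555 values of named genes under settings other than a left-out replicate, 536 kept their direction and side of the threshold and 19 kept their direction only. Of 732 with 1 replicate left out, 663 and 69 did, and 0 reversed in either set. These sets hold only the members that the naming rule picked in each comparison. Outside them, 6 members reversed with library totals between WT heart and control C2C12 cells, *Itga7* and *Mmp2* among them. *Itga10*, called under neither scaling, did so too. In heart Ribo-seq 1 member was called, against 2 with the replicate block (1 higher, 1 lower), 0 with 1 transcript per gene in the fit and 0 without the airway libraries. In C2C12 Ribo-seq, RPL3L OE against Control had 10 calls and 5 by DESeq2 (which gave 2 of the 10 no adjusted p), and in C2C12 TE, RPL3 OE against Control had 2 calls and 1 with only the 2 groups compared. The cause was not tested. With 1 replicate left out, counts of called members ranged from 0 to 0 in heart RNA-seq, heart TE, Disome-seq and C2C12 TE of RPL3L OE against RPL3 OE, and from 0 to 1 in heart Ribo-seq. For RPL3L OE against Control, RPL3 OE against Control and RPL3L OE against RPL3 OE they ranged from 13 to 18, 25 to 27 and 24 to 26 in C2C12 RNA-seq and from 6 to 11, 15 to 19 and 18 to 22 in C2C12 Ribo-seq, and from 1 to 4 and 1 to 2 for the first pair of comparisons in C2C12 TE. WT heart against control C2C12 ranged from 48 to 53. Numbers shared between groups did not pair the libraries (r from -0.374 to 0.433 over the same numbers in heart RNA-seq and Ribo-seq and from -0.061 to 0.072 in C2C12 cells). The replicate block gave 15, 26 and 26 calls in the 3 C2C12 RNA-seq comparisons. At a mean count of at least 50, no member could be fitted in Disome-seq, and WT heart and control C2C12 share no block. Over all transcripts, DESeq2 called 11 in heart RNA-seq against 2 by edgeR, 190 against 86 in heart Ribo-seq, 20 against 0 in heart TE and 25 against 0 in Disome-seq.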
